A study of Mus musculus with 6 samples.

Results

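Nat8l, Lct, Crtac1, Itga8, Igf2bp2 and Tex15 were 6 protein-coding genes outside the interferon response whose mRNA was much lower in mouse neutrophils after prostaglandin E2 (PGE2). They were 6 of the 45777 genes listed in the deposited table and of the 15947 tested, and they were picked by symbol because the read counts of these same libraries placed them high among the falls. Their PGE2 differences are therefore given as a description, with no test. The samples were 6 RNA-seq libraries of neutrophils from bone marrow, taken from wild type C57BL/6 mice and purified on a Percoll density gradient. The PGE2 group had 3 libraries of cells kept for 24 h with 10 µM PGE2, and the Vehicle group had 3 libraries of cells kept for 24 h with the vehicle alone, which the series design names as DMSO. The series design calls the replicates biological. The labels do not say what a replicate number stands for, how many animals gave a sample or whether animals were pooled.

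PGE2 is a lipid mediator that acts on 4 G protein-coupled receptors named EP1 to EP4, of which EP2 and EP4 raise cyclic AMP. The 6 genes share no pathway. Nat8l encodes the enzyme that joins acetyl-CoA to aspartate to make N-acetylaspartate, a metabolite best known from neurons. Lct encodes lactase, the brush border enzyme of the small intestine that splits milk sugar. Crtac1 encodes cartilage acidic protein 1, a secreted protein also known as LOTUS, which blocks the Nogo receptor on axons. Itga8 encodes the integrin alpha8 chain, which pairs with the beta1 chain to bind matrix proteins such as nephronectin and is known from kidney development and smooth muscle. Igf2bp2 encodes an RNA-binding protein that stabilises mRNAs, including those marked by N6-methyladenosine (m6A). Tex15 encodes a germ cell protein needed in mice for meiotic recombination and for the silencing of transposons guided by piRNAs.

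The libraries held 42091346 to 56238941 estimated reads. Values are in CPM, the read count per 1000000 reads of the library after scaling for library composition, unless TPM is named, which also corrects for gene length. Over all tested genes, 14.3% were lower and 10.1% higher with PGE2 by edgeR's quasi-likelihood test at an adjusted p of 0.05. Scaling by library totals gave 1751 lower and 2186 higher genes, against 2278 lower and 1618 higher with the scaling used here. With the replicate number as a block, 3009 (18.9%) were lower and 2648 (16.6%) higher. Without Vehicle replicate 2 or PGE2 replicate 2, the higher genes numbered 1005 or 1063. Of 15 neutrophil markers, 10 were lower and none higher with PGE2, and their summed level was 77750 to 93330 CPM in PGE2 libraries and 89720 to 94320 CPM in Vehicle libraries. The most abundant, S100a9, averaged 42110 CPM with PGE2 and 36040 CPM with vehicle, and did not pass the test. In such bulk samples, fewer cells of a type and less RNA per cell cannot be told apart.

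RefSeq (build GRCm38.p6, the patch release of mm10) gave the sequence before the start of 4 of the 6 genes. Nat8l and Tex15 were not among those matched. The windows are the 250 bases upstream of each RefSeq start, on the gene's own strand. For Lct and Igf2bp2 that start is the 5′ end of the gene as the deposited files give it, and these 2 windows are shown to set side by side the promoters of genes that fell to a like extent. The 2 Crtac1 starts lie 1178 and 1472 bases inside the gene span of the files, so both windows lie within the gene. The Itga8 start lies 41 bases inside, and its window overlaps the gene by as much. The Crtac1 and Itga8 windows are therefore described and not shown. The 50 bases after each start were also looked up in the gene's transcripts in GENCODE, another gene annotation. They were found in the same orientation for Lct, Igf2bp2 and the first Crtac1 start. For Itga8 and the second Crtac1 start they were not found, so these starts are less certain. Capitals mark matches to the GC box, GGGCGG or its complement CCGCCC, and to a PU.1 core, GAGGAA. PU.1 is a transcription factor of the myeloid lineage.
Lct, chr1:128328319-128328568, minus strand: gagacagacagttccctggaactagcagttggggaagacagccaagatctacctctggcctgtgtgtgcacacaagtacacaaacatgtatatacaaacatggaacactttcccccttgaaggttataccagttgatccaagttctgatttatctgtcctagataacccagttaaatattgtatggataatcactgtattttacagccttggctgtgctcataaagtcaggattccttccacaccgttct
Igf2bp2, chr16:22163300-22163549, minus strand: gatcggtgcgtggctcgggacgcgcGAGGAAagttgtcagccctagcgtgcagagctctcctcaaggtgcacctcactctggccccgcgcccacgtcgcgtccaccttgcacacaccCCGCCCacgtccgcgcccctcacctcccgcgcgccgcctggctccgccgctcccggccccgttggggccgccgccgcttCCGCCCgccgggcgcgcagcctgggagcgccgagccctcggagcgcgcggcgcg

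The 4 windows differed widely in their number of CG dinucleotides. The Lct window held 1 of them, the Itga8 window 18, the window of the first Crtac1 start 33 and the Igf2bp2 window 40, while the median was 6 over all 32851 windows of this length in the RefSeq table and 14 over the tested genes. Their GC content was 42.8% for Lct, 56.4% for Itga8, 77.6% for that of Crtac1 and 77.2% for Igf2bp2. That Crtac1 window and the Igf2bp2 window held 2 GC boxes each, a motif found in 32.7% of all windows and 53.9% of those of tested genes. The Igf2bp2 window held the only PU.1 core, a motif found in 23.3% of all windows and 23.4% of those of tested genes. Both strands were searched for 10 motifs, and 8 of them had no match in the 5 windows, which include the second Crtac1 start. Those were the cyclic AMP response element TGACGTCA (in 1.55% of all windows and 2.58% of those of tested genes) and its core TGACG, which that element contains (17.8% and 25.9%). The others, with the same shares in the same order, were the interferon-stimulated response element (2.98% and 2.84%), the GAS element TTCNNNGAA (7.02% and 6.22%), the AP-1 site TGANTCA (6.75% and 4.64%), the C/EBP site TTGCNNAA (9.56% and 8.17%), the E-box CACGTG (6.02% and 8.11%) and the TATA box TATAAA (12.4% and 7.03%). The lack of a match says only that these letters are not in these windows.

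The 6 genes ran from moderate to very low levels in each group of 3 libraries. Their order by mean TPM was the same with and without PGE2, though not in every single library. In TPM, Nat8l averaged 2.83 ± 1.26 with PGE2 and 17.8 ± 1.62 with vehicle (SD, n = 3 each). Crtac1 averaged 2.17 ± 0.752 TPM with PGE2 and 13.4 ± 0.977 TPM with vehicle. These 2 genes stood in the upper part of the tested genes with vehicle, above 68.0% and 62.9% of them, and above 36.8% and 32.8% of them with PGE2. Tex15 averaged 0.521 ± 0.288 TPM with PGE2 and 4.40 ± 2.21 TPM with vehicle. Igf2bp2 averaged 0.317 ± 0.107 TPM with PGE2 and 2.63 ± 0.755 TPM with vehicle. Itga8 averaged 0.240 ± 0.0568 TPM with PGE2 and 1.87 ± 0.163 TPM with vehicle. Lct was the lowest, and stood above 4.65% of the tested genes with PGE2 and 24.1% with vehicle. It averaged 0.129 ± 0.126 TPM with PGE2 and 1.11 ± 0.579 TPM with vehicle. The ranges of Nat8l and Crtac1 overlapped with PGE2 and not with vehicle. From Tex15 down, each gene's TPM range overlapped that of the next in both groups, and the gap between Crtac1 and Tex15 was clear in both.

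All 6 genes passed the low-count filter, and in each of them the 3 PGE2 libraries lay below the 3 Vehicle libraries. Over all tested genes 21.8% had their PGE2 libraries below their Vehicle libraries in this way, and 20.5% above. As these counts chose the genes, nothing is read from that. The mean CPM with PGE2 was 12.3% of the Vehicle mean for Lct, 13.1% for Igf2bp2, 13.2% for Tex15, 13.9% for Itga8, 16.9% for Nat8l and 17.7% for Crtac1. The median log2 fold change of the 6 was -2.88, beside 0.04 over all tested genes. Among genes with a symbol that is not provisional that were lower by the test, had groups that did not overlap and had a mean count of at least 100, they held ranks 4, 5, 6, 8, 10 and 12 by size of fall. The other genes among the first 12 were Ifit3 and Ifit3b, which are interferon-induced, and Itih5, Chil5, Gpr27 and Ear6, which are not members of the group described here, so rank alone did not choose the 6. The last of the 6 was Crtac1 at -2.50 ± 0.15 (SE), and next below it, at rank 13, was Megf9 at -2.40 ± 0.31. Over all tested genes, with low counts included, their ranks ran from 46 (Lct) to 85 (Crtac1).

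**Figure D1:**
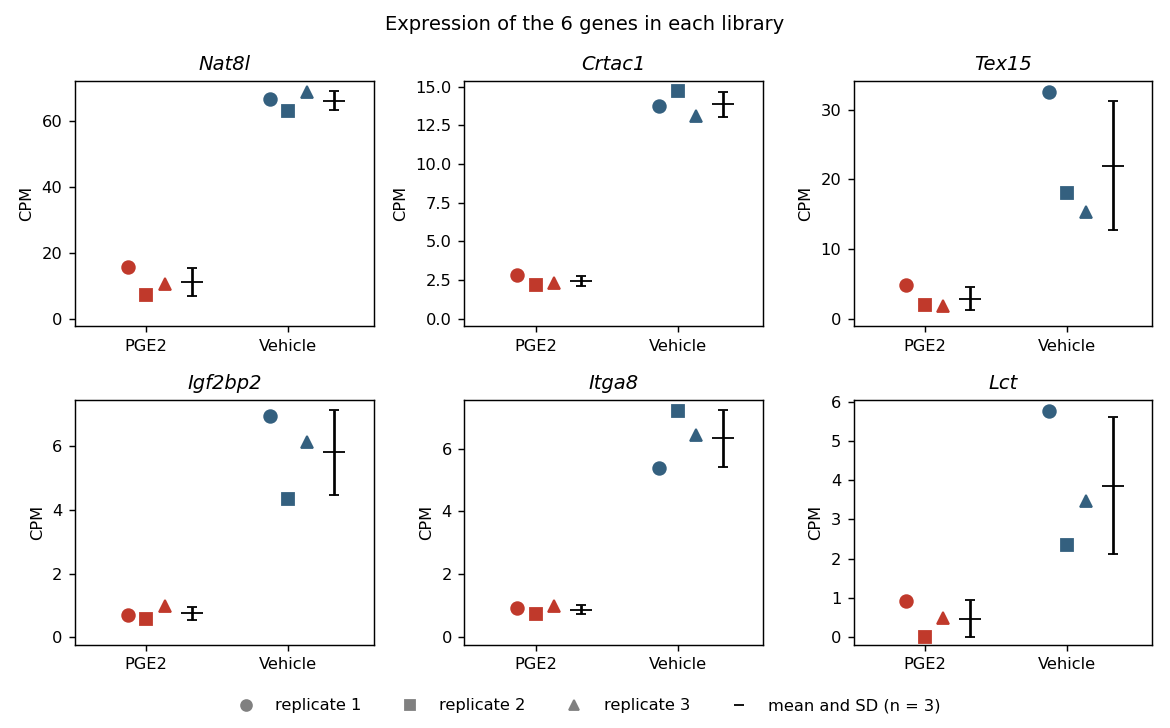
Read counts relative to library size (CPM, linear axis from 0) of the 6 genes in each library, PGE2 on the left and Vehicle on the right of each panel. Symbols are the replicate numbers and bars the mean and SD of 3 libraries; in every panel the PGE2 points lie below the Vehicle points, and in Tex15 and Lct replicate 1 is the highest of both groups.

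Nat8l was the most abundant of the 6 (chromosome 5, 33995984 to 34005916, plus strand, mm10). It had 15.8, 7.12 and 10.7 CPM in the 3 PGE2 libraries, in order of replicate number, and 66.7, 63.1 and 68.7 CPM in the 3 Vehicle libraries. The Vehicle libraries lay close together, with a coefficient of variation of 4.28%, and the PGE2 libraries were spread wider, at 38.9%. Its log2 fold change was -2.57 ± 0.25 (SE). Around it in metabolism, 2 of 7 tested genes of N-acetylaspartate and its dipeptide were lower and none higher, with a median log2 fold change of -0.25. Got2, the mitochondrial enzyme that supplies aspartate, averaged 51.3 ± 2.68 CPM with PGE2 and 81.9 ± 5.18 CPM with vehicle (SD, n = 3 each; edgeR adjusted p = 0.00132). Acly, the enzyme that makes cytosolic acetyl-CoA from citrate, averaged 132 ± 3.26 CPM with PGE2 and 191 ± 17.3 CPM with vehicle (edgeR adjusted p = 0.00418). Both fell by much less than Nat8l, with log2 fold changes of -0.67 ± 0.09 and -0.53 ± 0.09. The gene of the enzyme that breaks N-acetylaspartate down, Aspa, was at 0 counts in the 6 libraries, and Rimklb, which joins it to glutamate, had at most 3 counts in a library. Of 6 tested acetyltransferase genes of small molecules, none was lower and none higher without the block, and 1 was higher with it.

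Of the 3 tested genes on each side of Nat8l, 1 was lower and 1 higher. Its nearest on the lower side, Gm1673, 11.0 kb away, averaged 1.34 ± 0.253 CPM with PGE2 and 3.70 ± 1.21 CPM with vehicle, a log2 fold change of -1.47 ± 0.30 (edgeR adjusted p = 0.00884). On the other side, 1.26 kb from Nat8l, the DNA polymerase gene Poln was at 0.516 ± 0.258 CPM with PGE2 and 0.802 ± 0.0691 CPM with vehicle and did not pass the test (edgeR adjusted p = 0.401). Haus3, a spindle gene further on, lies within the span of Poln on the same strand. It was higher at 0.43 ± 0.10 (edgeR adjusted p = 0.0188, and 0.00299 to 0.143 over the alternatives). Without PGE2 replicate 3, Vehicle replicate 1 or Vehicle replicate 2 that p was 0.056, 0.0565 or 0.0749.

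Lct had the fewest reads of the 6 (chromosome 1, 128284756 to 128328318, minus strand). It had 47, 0 and 30 counts in the PGE2 libraries by replicate number, or 0.929, 0 and 0.494 CPM, and 264, 94 and 179 counts in the Vehicle libraries, or 5.76, 2.34 and 3.46 CPM. Replicate 1 was the highest and replicate 2 the lowest of both groups. Against a floor of 3 counts in that library, PGE2 replicate 2 was at least 40.8-fold lower than Vehicle replicate 2, while the same ratio was 6.20-fold for replicate 1 and 7.01-fold for replicate 3. The floor covers counting error only. The log2 fold change was -3.02 ± 0.89, the largest SE of the 6 with and without the block. Leaving out PGE2 replicate 1 gave -3.89, and leaving out PGE2 replicate 2 gave -2.44. With the replicate number as a block it was -3.32 ± 0.60.

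Related sugar-splitting enzymes moved both ways. Of 12 tested glycosidases, 4 were lower and 2 higher, and 7 were lower with the block, with a median log2 fold change of -0.33. Mgam, the maltase-glucoamylase gene, whose product is another brush border disaccharidase, averaged 52.5 ± 17.0 CPM with PGE2 and 254 ± 56.8 CPM with vehicle (SD, n = 3 each). Its log2 fold change of -2.27 ± 0.24 came nearest to that of Lct among the list (edgeR adjusted p = 0.000653). Manba, the lysosomal beta-mannosidase gene, was lower at -0.64 ± 0.09 (edgeR adjusted p = 0.00185). The lysosomal enzyme genes Gla and Gusb were higher, at 1.55 ± 0.13 and 0.35 ± 0.08 (edgeR adjusted p = 0.000317 and 0.0149). The call of Gusb was lost without Vehicle replicate 3 (0.0577). It was also lost by limma on TPM with 1 or 0.1 added (0.181 and 0.183), and its adjusted p ran from 0.00129 to 0.183 over the alternatives. Glb1, the lysosomal beta-galactosidase gene, was at 12.4 ± 2.08 CPM with PGE2 and 13.6 ± 1.33 CPM with vehicle and did not pass (edgeR adjusted p = 0.58). Lctl, the nearest relative of Lct in the list, was at 0 counts throughout.

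Most intestinal genes had no counts. Of 16 brush border genes and lactase regulators, 11 were at 0 in all libraries, among them Cdx2 and Slc5a1, and neither of the 2 tested passed. Enterocyte markers summed to 0.746 to 1.35 CPM in PGE2 libraries and 0 to 0.786 CPM in Vehicle libraries. The neighbour Mcm6, a replication helicase gene 3.26 kb from Lct, was at 25.4 ± 3.68 CPM with PGE2 and 33.8 ± 4.10 CPM with vehicle. It did not pass (edgeR adjusted p = 0.0617). It passed with the replicate block (0.0222), without PGE2 replicate 3 (0.0307) and by DESeq2's Wald test (0.0278), with 0.0222 to 0.197 over the alternatives. On the lower side the first by start position was Gm41949, 32.7 kb away and within the span of Ubxn4 on the same strand. Gm41949 was at -1.12 ± 0.42 and did not pass (edgeR adjusted p = 0.0919). It passed with the block (0.00412), without PGE2 replicate 1 (0.0208) and by DESeq2's Wald test (0.0395), with 0.00412 to 0.279 over the alternatives. Ubxn4, whose end is nearer to Lct, at 5.38 kb, was at -0.19 ± 0.08 and did not pass (edgeR adjusted p = 0.134). Dars, the aspartyl-tRNA synthetase gene, was lower at -0.72 ± 0.10 (edgeR adjusted p = 0.00188), and Gm6170 was higher at 0.72 ± 0.16 (edgeR adjusted p = 0.0128).

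Crtac1 varied little within either group (chromosome 19, 42283035 to 42432966, minus strand). It had 2.85, 2.22 and 2.29 CPM in the 3 PGE2 libraries, in order of replicate number, and 13.7, 14.7 and 13.1 CPM in the 3 Vehicle libraries. The coefficients of variation were 14.0% with PGE2 and 5.83% with vehicle. Its log2 fold change was -2.50 ± 0.15 and lay between -2.61 and -2.43 when any library was left out. Of the 11 tested genes of the Nogo receptor system, 2 were lower and none higher, with a median log2 fold change of 0.03. Pirb, an inhibitory receptor of myeloid cells that also binds Nogo in mice, averaged 310 ± 85.2 CPM with PGE2 and 674 ± 27.3 CPM with vehicle (SD, n = 3 each; log2 fold change -1.12 ± 0.18, edgeR adjusted p = 0.00367). Tnfsf13b, a B cell survival factor that is also a ligand of the Nogo receptor, was at -1.75 ± 0.17 (edgeR adjusted p = 0.000478). The receptor gene itself, Rtn4r, was barely present, at 0.574 ± 0.394 CPM with PGE2 and 0.381 ± 0.202 CPM with vehicle, and did not pass (edgeR adjusted p = 0.588).

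Of the 3 tested genes on each side of Crtac1, 3 were lower and none higher. Its nearest tested genes were Zfyve27, 88.4 kb away at a log2 fold change of -0.27 ± 0.07 (edgeR adjusted p = 0.0335), and R3hcc1l, 85.0 kb away at 0.19 ± 0.11 (edgeR adjusted p = 0.236). Marveld1 was at -0.45 ± 0.13 (edgeR adjusted p = 0.0351) and Hps1, a gene of lysosome-related organelles, at -0.61 ± 0.12 (edgeR adjusted p = 0.00872). The calls of Zfyve27 and Marveld1 were lost whichever of the 6 libraries was left out, and their adjusted p ran from 0.00471 to 0.182 and from 0.0156 to 0.107 over the alternatives. Cartilage and bone markers, the tissue after which Crtac1 is named, were at 0 for Acan, Sox9 and Sp7. Runx2, the most abundant of that list, averaged 61.3 CPM with PGE2 and 136 CPM with vehicle, and of the 3 tested 1 was lower and 1 higher.

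Itga8 was expressed at a low level (chromosome 2, 12106632 to 12301985, minus strand). It had 0.929, 0.727 and 0.988 CPM in the 3 PGE2 libraries, in order of replicate number, and 5.37, 7.18 and 6.42 CPM in the 3 Vehicle libraries, from 38 to 60 counts with PGE2 and 246 to 332 counts with vehicle. Replicate 2 was the lowest with PGE2 and the highest with vehicle. Its log2 fold change was -2.84 ± 0.22. Itgb1, its beta1 partner, was at 96.3 ± 2.07 CPM with PGE2 and 92.1 ± 6.11 CPM with vehicle and did not pass (SD, n = 3 each; edgeR adjusted p = 0.619). Itga5 and Itgav, which are among the other alpha chains that bind the same RGD motif, did not pass either (edgeR adjusted p = 0.276 and 0.773). Itga5 was at 33.7 ± 2.13 CPM with PGE2 and 38.5 ± 4.81 CPM with vehicle, and Itgav at 42 ± 1.40 CPM with PGE2 and 43.2 ± 1.29 CPM with vehicle.

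Among 16 tested alpha chain genes, 4 were lower and none higher, and 5 were lower and 1 higher with the block. Itgal, Itga4, Itgam and Itga6 were lower, at -0.87 ± 0.08, -0.64 ± 0.10, -0.64 ± 0.11 and -0.48 ± 0.10 (edgeR adjusted p = 0.000369, 0.00324, 0.0049 and 0.0107). The largest fall among them was thus that of Itgal, and the median of the 16 was -0.12. Of 6 tested beta chain genes, 3 were lower and 1 higher, and 4 were lower and 1 higher with the block, with a median of -0.67. Itgb2, the leukocyte beta2 chain, was at -0.97 ± 0.10 (edgeR adjusted p = 0.000591), Itgb3 at -0.88 ± 0.15 (0.00403) and Itgb2l, a neutrophil gene related to Itgb2, at -1.37 ± 0.29 (0.0116). Itgb5 was higher at 0.49 ± 0.14 (edgeR adjusted p = 0.0321, and 0.00865 to 0.198 over the alternatives), a call that held only without Vehicle replicate 2 when a library was left out. Of 5 tested ligand genes, Spp1 and Fn1 were higher, at 3.57 ± 0.19 and 0.52 ± 0.12 (edgeR adjusted p = 9.3e-05 and 0.0137), and Tgfb1 lower, at -0.46 ± 0.10 (edgeR adjusted p = 0.0135). Fn1 was at 0.0541 without Vehicle replicate 2 (0.000603 to 0.13 over the alternatives), and Tgfb1 at 0.0507 with PGE2 replicate 2 left out and 0.0587 with Vehicle replicate 2 left out (0.000241 to 0.0587). Npnt, the gene of nephronectin, had at most 7 counts in a library.

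Of the 3 tested genes on each side of Itga8, 3 were lower and none higher. The nearest tested genes were Ankrd16, 316 kb away on the lower side, and Mindy3, 45.3 kb away on the other. Ankrd16 was lower at -0.45 ± 0.08 (edgeR adjusted p = 0.00594), as were the helicase gene Fbh1 at -0.47 ± 0.09 and the Ras suppressor gene Rsu1 at -0.85 ± 0.15 (edgeR adjusted p = 0.00539 and 0.00527). Mindy3, a deubiquitinase gene, was at -0.43 ± 0.14 and did not pass (edgeR adjusted p = 0.054). It passed with the block (0.0112), without PGE2 replicate 1 (0.00822), by DESeq2's Wald test (0.022) and with a filter of 50 counts (0.0493). Over the alternatives its adjusted p ran from 0.00822 to 0.218. The 5′ end of Itga8 is overlapped on the other strand by the noncoding gene E030013I19Rik, at 0 CPM with PGE2 and 0.22 CPM with vehicle. Stromal and endothelial markers were present in part. Col3a1 and Pdgfra were at 0, 9 of 12 were tested and none passed (1 was higher with the block), and their sum was 278 to 293 CPM in PGE2 libraries and 263 to 340 CPM in Vehicle libraries, most of it Acta2.

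Igf2bp2 had few reads left with PGE2 (chromosome 16, 22059009 to 22163299, minus strand). It had 0.712, 0.593 and 0.988 CPM in the 3 PGE2 libraries, in order of replicate number, and 6.96, 4.36 and 6.13 CPM in the 3 Vehicle libraries. These values rest on 31 to 60 counts with PGE2 and 175 to 319 counts with vehicle. Its log2 fold change was -2.92 ± 0.28. Its paralogs were absent or scarce. Igf2bp1 was at 0 counts in the 6 libraries, and Igf2bp3 was at 0.749 ± 0.414 CPM with PGE2 and 0.910 ± 0.119 CPM with vehicle and did not pass (SD, n = 3 each; edgeR adjusted p = 0.708). Hmga2, which encodes a chromatin protein that activates Igf2bp2 in other tissues, reached at most 14 counts in a library, and Lin28b, a blocker of the let-7 microRNAs, at most 1 count.

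Of 15 tested genes of the Igf2bp, Lin28 and Hmga axis and of insulin signalling, 4 were lower and 1 higher, and 5 were lower and 2 higher with the block, with a median log2 fold change of -0.14. Lin28a, the other let-7 blocker, averaged 39.7 ± 11.0 CPM with PGE2 and 70.0 ± 6.13 CPM with vehicle (log2 fold change -0.82 ± 0.18, edgeR adjusted p = 0.0138; 0.0521 without PGE2 replicate 2, and 0.000177 to 0.0521 over the alternatives). The insulin receptor gene Insr was at -0.88 ± 0.14 (edgeR adjusted p = 0.00327), and the transcription factor genes Arid3a and Arid3b at -0.57 ± 0.08 and -0.39 ± 0.08 (0.00215 and 0.0111). Arid3b did not pass with library totals as the scale (0.0552; 0.000333 to 0.0552 over the alternatives). Hmga1 was higher at 0.41 ± 0.11 (edgeR adjusted p = 0.0294), but not without PGE2 replicate 3 (0.0704), Vehicle replicate 1 (0.074) or Vehicle replicate 2 (0.108; 0.00365 to 0.211 over the alternatives). The 20 genes of the m6A machinery, whose mark Igf2bp2 protein reads, had a median of 0.09, with 2 lower and 2 higher, and 3 lower and 3 higher with the block. The writer subunit gene Zc3h13 was at -0.35 ± 0.08 (edgeR adjusted p = 0.0123) and the reader gene Ythdc2 at -0.49 ± 0.15 (0.0472). The RNA-binding protein genes Hnrnpa2b1 and Rbmx were at 0.33 ± 0.08 and 0.34 ± 0.10 (edgeR adjusted p = 0.0209 and 0.0352). Each of these 4 calls was lost when some library was left out. That was Vehicle replicate 2 for Zc3h13 (0.000304 to 0.0774 over the alternatives), each library in turn for Ythdc2 (0.0132 to 0.161), each but Vehicle replicate 1 for Rbmx (0.00809 to 0.282), and PGE2 replicate 2 or Vehicle replicate 2 or 3 for Hnrnpa2b1 (0.0012 to 0.13).

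Of the 3 tested genes on each side of Igf2bp2, 1 was lower, 2 were higher and 3 did not pass. Senp2, a SUMO protease gene 9.74 kb away on the lower side, averaged 124 ± 11.7 CPM with PGE2 and 215 ± 5.35 CPM with vehicle (SD, n = 3 each; log2 fold change -0.79 ± 0.09, edgeR adjusted p = 0.000815). Tra2b, a splicing factor gene 81.3 kb away on the other side, averaged 81.1 ± 1.32 CPM with PGE2 and 54.6 ± 1.27 CPM with vehicle (log2 fold change 0.57 ± 0.07, edgeR adjusted p = 0.00134). The pseudogene Gng5-ps was higher at 0.47 ± 0.13 (edgeR adjusted p = 0.0321), a call that held without PGE2 replicate 3 and was lost without each other library (0.0115 to 0.0887 over the alternatives), and its reads can be shared with the parent gene.

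Tex15 varied widely between replicate numbers (chromosome 8, 33516689 to 33592503, plus strand). It had 4.84, 1.97 and 1.88 CPM in the 3 PGE2 libraries, in order of replicate number, and 32.5, 18.0 and 15.3 CPM in the 3 Vehicle libraries. Replicate 1 was the highest in both groups, by more than 2-fold over the next with PGE2 and by less with vehicle. Within replicate numbers the fall was even, at 6.71-fold, 9.15-fold and 8.17-fold. Its log2 fold change was -2.93 ± 0.44, and -2.97 ± 0.13 with the replicate number as a block. Leaving out PGE2 replicate 1 gave -3.50, and leaving out Vehicle replicate 1 gave -2.52.

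Many other germ cell genes had no counts. In the piRNA list 10 of 16 genes were at 0 in all libraries, and of the 3 tested, 1 was higher and none lower. Piwil2, which encodes a piRNA-binding Argonaute protein, averaged 16.0 ± 2.16 CPM with PGE2 and 8.51 ± 2.29 CPM with vehicle (SD, n = 3 each; log2 fold change 0.91 ± 0.20, edgeR adjusted p = 0.0132). Its adjusted p was 0.053 without Vehicle replicate 2, and 0.000347 to 0.053 over the alternatives. Of 17 tested genes of meiotic recombination and synapsis, 1 was lower and 1 higher, and 2 were lower and 2 higher with the block, with a median of 0.16. Sycp2, of the synaptonemal complex, was lower, at 17.9 ± 4.87 CPM with PGE2 and 34.8 ± 1.23 CPM with vehicle (edgeR adjusted p = 0.00799). Rpa3, a subunit of a single-strand DNA binding complex used in all dividing cells, was higher at 0.65 ± 0.18 (edgeR adjusted p = 0.0296), but not without PGE2 replicate 1 or 2 or Vehicle replicate 2 or 3 (0.0657 to 0.0959 there, and 0.00967 to 0.0959 over the alternatives). Of 8 germ cell markers, 6 were at 0 in all libraries, among them Dazl and Stra8, and the sum was 1.5 to 1.85 CPM in PGE2 libraries and 0.424 to 0.786 CPM in Vehicle libraries. Most of that sum was Prm1, a sperm protamine gene, at 1.56 CPM with PGE2 and 0.526 CPM with vehicle, and its adjusted p was 0.0127 and, when Vehicle replicate 2 was left out, 0.0514 (edgeR).

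On neither side of Tex15 did the nearest tested gene pass the test. Ppp2cb, a phosphatase subunit gene 7.12 kb away, was at 96.2 ± 3.52 CPM with PGE2 and 94.0 ± 5.90 CPM with vehicle (SD, n = 3 each; edgeR adjusted p = 0.818). Purg, 99.2 kb away on the lower side, was at -0.35 ± 0.15 and did not pass (edgeR adjusted p = 0.122), but did with the block (0.0245) and without PGE2 replicate 1 (0.0493; 0.0245 to 0.317 over the alternatives). Wrn, the Werner helicase gene next to it, was lower at -0.65 ± 0.15 (edgeR adjusted p = 0.0138), but was at 0.0509 without PGE2 replicate 2 and 0.0527 without PGE2 replicate 3 (0.000242 to 0.0527 over the alternatives).

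**Figure D2:**
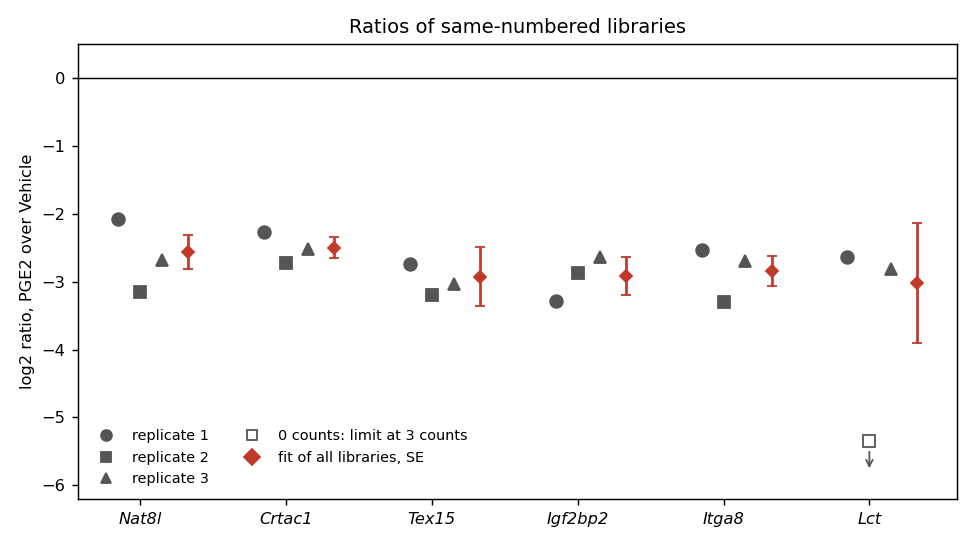
Log2 ratio of CPM in the PGE2 library over the Vehicle library of the same replicate number (grey symbols), and the log2 fold change of the fit over all libraries with its SE (red diamonds), for each of the 6 genes. Every ratio lies below -2, and the open symbol of Lct is a limit set at 3 counts, since PGE2 replicate 2 had none.

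Between same-numbered libraries the 6 genes were lower 4.23-fold (Nat8l, replicate 1) to 9.88-fold (Itga8, replicate 2), apart from the limit for Lct in replicate 2. Nat8l, Crtac1, Tex15 and Itga8 had their smallest ratio in replicate 1 and their largest in replicate 2. Igf2bp2 had its largest in replicate 1 and its smallest in replicate 3. Hemoglobin mRNAs of the red cell lineage made up 1.57 to 4.87% of the reads of PGE2 libraries and 0.413 to 1.86% of those of Vehicle libraries. They were lowest in replicate 1 and highest in replicate 2 of both groups, and their part in these ratios was not tested. Without PGE2 replicate 2, the library with most of them, the log2 fold changes were -2.32 for Nat8l, -2.43 for Crtac1, -2.71 for Tex15, -2.76 for Igf2bp2, -2.71 for Itga8 and -2.44 for Lct.

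Markers of other cells were also compared between the groups. Eosinophil markers were lower in 6 of 9 tested and higher in none, and summed to 72.8 to 119 CPM in PGE2 libraries and 154 to 311 CPM in Vehicle libraries, the highest being Vehicle replicate 2. The most abundant were Prg2, at 55.4 CPM with PGE2 and 118 CPM with vehicle, and Epx, at 6.77 CPM with PGE2 and 26.6 CPM with vehicle. In Vehicle replicate 2, Crtac1 and Itga8 were at their highest of the Vehicle group, Nat8l, Igf2bp2 and Lct at their lowest and Tex15 between. B lineage markers were higher in 4 of 9 and lower in none (8 higher with the block), with sums of 624 to 918 CPM in PGE2 libraries and 412 to 563 CPM in Vehicle libraries. Erythroid markers were higher in 1 of 9, and in 9 of 9 with the block. Monocyte and macrophage markers were lower in 2 of 10, with sums of 735 to 1123 CPM in PGE2 libraries and 1128 to 1456 CPM in Vehicle libraries and myeloid progenitor markers in 2 of 9. None of the 7 basophil and mast cell markers passed, nor any of the 9 T and NK cell markers (3 higher with the block) or of the 6 tested megakaryocyte markers (1 higher with the block). The part of these cells in the fall of the 6 genes was not tested.

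Over the 12 lists, 23 of 120 related genes tested were lower and 10 higher, with a median log2 fold change of -0.01. The higher genes numbered 6 without PGE2 replicate 2, 4 without Vehicle replicate 2 and 5 without Vehicle replicate 3. Of the 36 neighbours, 10 were lower and 4 higher, with a median of -0.26, and 16 were lower with the block. The shares over all tested genes were 14.3% lower and 10.1% higher, and 18.9% lower and 16.6% higher with the block. Whether the lists or neighbours differ from those shares was not tested. Without Vehicle replicate 1 or 2, the higher neighbours numbered 2. No neighbour or related gene that passed was lowered as far as any of the 6, the nearest being Mgam. As the 6 were picked for large falls in these same counts, nothing is read from that.

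**Figure D3:**
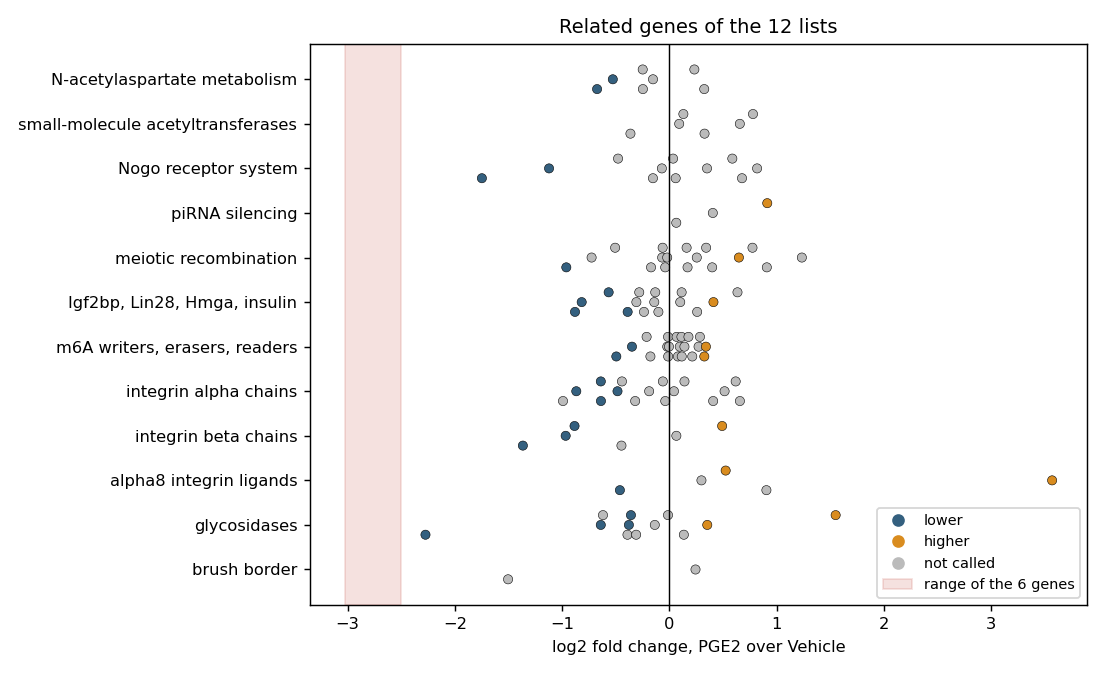
Log2 fold change, PGE2 over Vehicle, of 120 tested genes in 12 lists of related genes, coloured by the edgeR call at an adjusted p of 0.05. The shaded band spans the 6 genes, from -3.02 to -2.50, which were picked for large falls in these same counts. No related gene lies in it, and Mgam, among the glycosidases, is the nearest at -2.27.

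**Figure D4:**
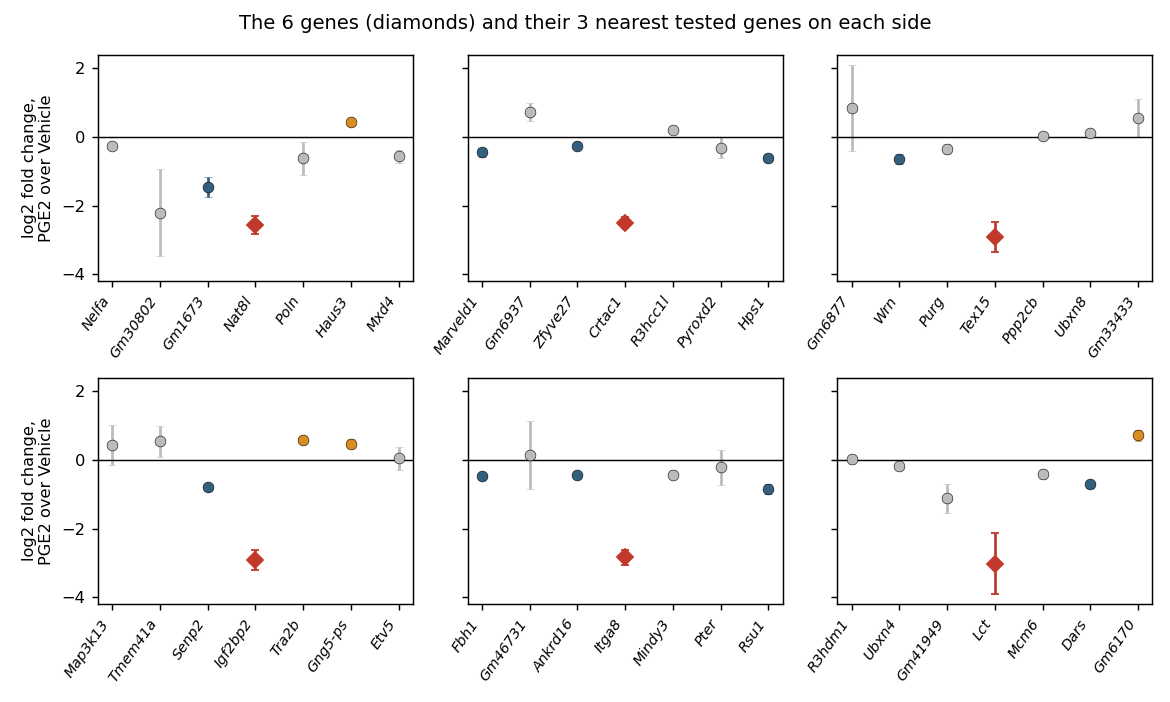
Log2 fold change, PGE2 over Vehicle, with its SE, of each of the 6 genes (red diamond) and of the 3 nearest tested genes on each side in order of start position (circles, blue lower, orange higher, grey not called). Spacing is by order and not to scale. The diamond is the lowest point of every panel, which the choice of the 6 genes for large falls largely built in.

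Likeness of profile was measured as the root mean square difference of log2 CPM, centred on each gene's mean over the 6 libraries, among 10381 other genes with a mean count of at least 100. With so few libraries the measure is set largely by the PGE2 difference itself, and says nothing of function. Nearest to Nat8l were Sfmbt2, a chromatin gene of the polycomb group (0.133), and Scnn1a, an epithelial sodium channel gene (0.182). Sfmbt2 had 6.43, 2.49 and 4.30 CPM with PGE2 and 25.4, 22.5 and 21.5 CPM with vehicle, and like Nat8l was highest in replicate 1 and lowest in replicate 2 of the PGE2 group. Nearest to Crtac1 were Scnn1a (0.144) and Ddx60, an interferon-induced helicase gene (0.156), and nearest to Itga8 were Crtac1 itself (0.225) and Scnn1a (0.245). Nearest to Igf2bp2 were Ifit3, an interferon-induced gene (0.315), and Itih5 (0.319). Nearest to Tex15 were Chil5, a chitinase-like gene (0.209), and Megf9 (0.388). Chil5 had 2.21, 1.28 and 0.922 CPM with PGE2 and 14.0, 9.62 and 9.22 CPM with vehicle, again with replicate 1 highest in both groups. Nearest to Lct were Orm1, which encodes the acute phase protein orosomucoid (0.244), and, much farther off, Sfmbt2 (1.25). Orm1 had 1.26, 0 and 0.445 CPM with PGE2 and 5.22, 2.72 and 4.72 CPM with vehicle, and so shared with Lct its 0 in PGE2 replicate 2. Among the 6 themselves the closest pairs were Crtac1 with Itga8 (0.225) and Nat8l with Crtac1 (0.258), and Lct was at least 1.28 from every other.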

How the data were processed

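Per the submitters' processing notes, the build was mm10 and the tools included STAR, Bowtie2, RSEM, StringTie 2.1.3b and DESeq2. Neither their roles nor a strand setting for the counting was stated there. The authors deposited estimated counts per gene as whole numbers in a table called normalized. Library totals differed there, so the values were treated as not normalised. The per-library tables give TPM per gene and coverage (a read depth signal that was not used for any result), per the file headers. Their coordinates equalled RefSeq GRCm38.p6 for 96.4% of 45672 genes. A further 18 columns, of 6 libraries outside these samples, were left unused.

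Testing covered the 15947 genes that reached 10 counts in 3 or more libraries, by edgeR 4.0.16 quasi-likelihood with TMM scaling in R 4.3.3, two-sided, Benjamini-Hochberg over all genes at 0.05. SEs are the log2 fold change over the square root of the F statistic. CPM use TMM library sizes. The fit was also run on counts simulated from its own estimates of each gene's mean and spread. Such counts follow the model of the fit, so nothing about the real libraries is read from that run. Replicates differed by more than sampling noise (chi-square per gene of at least 32.5). Deviations from group means of same-numbered libraries correlated at 0.258, 0.174 and 0.187, and those of different numbers at -0.166 to 0.0019. Deviations within a group of 3 sum to 0, so low values for different numbers follow from positive ones for the same number and add nothing to them. The numbers from the titles were therefore used for ratios of same-numbered libraries and for a fit with the replicate block. As the labels state no pairing, the main fit has no block. SEs and adjusted p-values are from that main fit unless the block or another alternative is named. Where samples do not come from separate animals, p-values measure only the spread between libraries.

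The 6 genes, the 12 lists of related genes, the 13 marker lists and the naming rule were chosen with earlier results of these data known. That rule named up to 4 called genes of each list by smallest adjusted p and up to 2 in the other direction, a few fixed partners, the most abundant markers of lists set beside a result, and called or nearest neighbours among the 3 tested genes on each side. The 14 alternatives were DESeq2 1.42.0 size factors, library totals, DESeq2's Wald test, no filter, a filter of 50 counts, limma 3.58.1 on log2(TPM + 1) and log2(TPM + 0.1) (genes reaching a TPM of 1 in 3 libraries), the block, and leaving out each library.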

Additional observations from a re-analysis of the deposited data

How the results depend on the processing

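Each of the 6 genes stayed lower with PGE2 under all 14 alternatives that gave it a value. The genes were picked for large falls in these same counts, so a stable direction was built in and nothing is read from it. Lct gave none on TPM, where it missed the filter. The median log2 fold change of the 6 was -2.88, was -2.89 to -2.57 when a library was left out, and was -1.77 on log2(TPM + 1) and -2.70 on log2(TPM + 0.1) over the other 5. Adding 1 to TPM values near 1 pulls fold changes toward 0 by its construction. On TPM the median of all genes moved by -0.10 and -0.12. Genes called lower numbered 1627 to 2262 with a library left out. Genes called higher numbered 1618, but 966 and 953 on TPM with 1 and 0.1 added, 2648 with the replicate block and 1005 to 1541 with a library left out. Related genes called higher numbered 10, but 3 on TPM with either pseudocount and 4 to 9 with a library left out, and those called lower 18 to 24. Neighbours called lower numbered 10, but 16 with the replicate block and 7 to 11 with a library left out. Neighbours called higher numbered 4, but 2 on TPM with either pseudocount and 2 to 3 with a library left out. On TPM with either pseudocount, the higher calls of Fn1, Gusb, Hmga1, Hnrnpa2b1, Itgb5, Rbmx, Rpa3, Haus3 and Gng5-ps were lost. So were the lower calls of Zfyve27, Marveld1 and Ythdc2. The cause of these shifts was not tested. Beyond those named above, the block changed no call of a named gene. Of 801 values of 58 other named genes, 701 kept their side of the threshold, 88 lost it, 12 gained it and none reversed. That tally leaves out Ubxn4 and the genes named only as cell type markers, such as Prm1, or only for rank or likeness of profile. Depth limits Lct, Itga8 and Igf2bp2 most, which rest on 0 to 60 counts per PGE2 library.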
